A study of Mus musculus with 14 samples.

Results

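The miR-17-92 and miR-106b-25 clusters are a pair of related groups of microRNA (miRNA) genes, and their mature products were followed here along the mouse epididymis. The members were chosen by name, as the 10 mature miRNAs miR-17-5p, miR-17-3p, miR-18a-5p, miR-19a-3p, miR-20a-5p, miR-19b-3p and miR-92a-3p of miR-17-92, and miR-106b-5p, miR-93-5p and miR-25-3p of miR-106b-25. All 10 were listed in both count tables, among 900 mature miRNAs for whole tissue and 677 for isolated epithelial cells. Small RNA was sequenced from the caput, corpus and cauda, the regions through which sperm pass in that order. Every library came from male Swiss mice aged 8 weeks, with no treatment named in the labels, whose blood vessels had been flushed with saline, and RNA was pooled from 3 or more mice per whole tissue replicate and from 9 to 12 mice per epithelial replicate. Whole tissue gave 3 caput, 2 corpus and 3 cauda libraries, and epithelial cells gave 2 libraries for each region. For the latter, tissue was cleared of sperm, digested with enzymes and plated. Per the paper, fibroblasts and muscle cells attached to the plate, and the cells still in suspension were collected as epithelial. The question was how miRNA levels differ from region to region, in the whole organ and in its epithelium.

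A miRNA cluster is a set of hairpins cut from a single primary transcript, after which each hairpin yields a mature strand from its 5′ arm, its 3′ arm or both. The miR-17-92 cluster, transcribed under MYC and E2F factors in other tissues, is known for promoting proliferation and blocking cell death, with targets such as Bim (Bcl2l11) and E2f1. The miR-106b-25 cluster lies within Mcm7, a gene of the DNA replication machinery, and shares its seeds with miR-17-92. The seed, the stretch near the 5′ end that pairs with a target, largely decides which messages a miRNA acts on, so miRNAs with a common seed form a family.

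The mature sequences are shown because seed families cross the clusters, and because neighbours in a family differ by so few bases. They are written 5′ to 3′ from RefSeq (GRCm38.p6), with the seed, bases 2 to 8, in capitals.
miR-17-5p: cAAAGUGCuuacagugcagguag
miR-20a-5p: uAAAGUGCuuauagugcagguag
miR-106b-5p: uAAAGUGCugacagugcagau
miR-93-5p: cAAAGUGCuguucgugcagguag
miR-18a-5p: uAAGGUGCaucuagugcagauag
miR-19a-3p: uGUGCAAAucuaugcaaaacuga
miR-19b-3p: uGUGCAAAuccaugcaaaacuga
miR-92a-3p: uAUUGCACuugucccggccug
miR-25-3p: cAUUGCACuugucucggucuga
miR-17-3p: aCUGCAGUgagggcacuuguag
The first 4 share the miR-17 seed, with 2 members from each cluster. miR-92a-3p and miR-25-3p share the miR-92 seed across the clusters, while the miR-19 family has both of its members in miR-17-92, and miR-18a-5p and miR-17-3p each have a seed no other member has. Outside the seed the relatives are close. miR-19a-3p and miR-19b-3p differ at 1 position of 23 (U11C, counted from the 5′ end, miR-19a-3p first). miR-17-5p and miR-20a-5p differ at 2 positions of 23, and miR-92a-3p and miR-25-3p at 3 of the 21 positions they share.

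The miR-17-92 hairpins span 836 bases at chr14:115043671-115044506 (plus strand), in the order miR-17, miR-18a, miR-19a, miR-20a, miR-19b-1 and miR-92a-1. Each overlaps an exon of the non-coding host gene Mir17hg in the GENCODE annotation of GRCm38. The miR-106b-25 hairpins span 498 bases at chr5:138165321-138165818 (minus strand), in the order miR-106b, miR-93 and miR-25, inside Mcm7 but outside the exons of its protein-coding transcripts. Those of miR-93 and miR-25 overlap exons of other Mcm7 transcripts. A further cluster on the X chromosome, miR-106a-363 at chrX:52741693-52742567, carries second copies of miR-19b-3p and miR-92a-3p with identical mature sequences, so that counts of these 2 members cannot be assigned to a single locus. Of 10 other products of that cluster on the list, 5 were listed in the whole tissue table, with at most 3.33 counts in any library, and 4 in the epithelial table, with at most 3 counts. The closest of them to miR-17-5p is miR-106a-5p, which differs from it at 1 position (U10A) and held 0 to 3 counts in whole tissue libraries. How much the X-linked locus added to miR-19b-3p and miR-92a-3p was not tested.

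Total counts ran from 1243398 to 2135501 per whole tissue library but only from 89039 to 362867 per epithelial library. The 10 members together took 0.255 to 0.399% of the counts in whole tissue and 0.455 to 0.946% in epithelial cells. Values are given as CPM, counts scaled by TMM to a common library size, computed separately for the 2 preparations. Levels are therefore compared between regions of a preparation and not between preparations, and ratios within a library are used where the preparations are set side by side. Marker miRNAs of other cell types moved with region. In whole tissue 4 muscle miRNAs summed to between 4.54 and 5.89% of counts in the caput and between 24.9 and 27.1% in the cauda, while 6 epithelial miRNAs of the miR-200 family and miR-205 took 1.95% on average in the caput and 0.990% in the cauda. Mean shares of the other lists in the whole tissue caput and cauda were 0.00773 and 0.122% for 3 red blood cell miRNAs, 0.0916 and 0.217% for 5 leukocyte miRNAs, 1.39 and 1.85% for 2 endothelial miRNAs and 0.412 and 1.25% for 9 germ cell miRNAs. In the epithelial preparation the muscle miRNAs were also present, at 12.8 to 32.0% of counts, and the germ cell miRNAs took 0.247 to 0.733%. No marker on these lists was at 0 in every library of a preparation.

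miR-25-3p was the most abundant member in every library of both preparations, and miR-17-3p or miR-18a-5p the least (the plot of levels by library). In the whole tissue caput the mean level ran from miR-25-3p at 1138 CPM ± 52.3 (SD, n = 3) through miR-93-5p at 481 ± 4.28, miR-19b-3p at 401 ± 54.3, miR-17-5p at 306 ± 21.03, miR-20a-5p at 259 ± 29.8, miR-92a-3p at 257 ± 9.85, miR-106b-5p at 139 ± 10.6, miR-19a-3p at 77.8 ± 12.8 and miR-18a-5p at 16.8 ± 3.29 to miR-17-3p at 7.30 ± 1.60. These are counts of whole mature miRNAs of 21 to 23 bases, so length does not enter. Whether different miRNAs were captured equally was not measured, so the order is one of counts. Among neighbours in this order, the libraries of miR-20a-5p and miR-92a-3p overlapped and those of the other pairs did not. The rank of miR-25-3p among all names was between 43 and 61 in whole tissue and between 31 and 43 in epithelial cells. At the other end, miR-17-3p had 3 to 24 counts per whole tissue library and 1 to 4 per epithelial library.

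**Figure D1:**
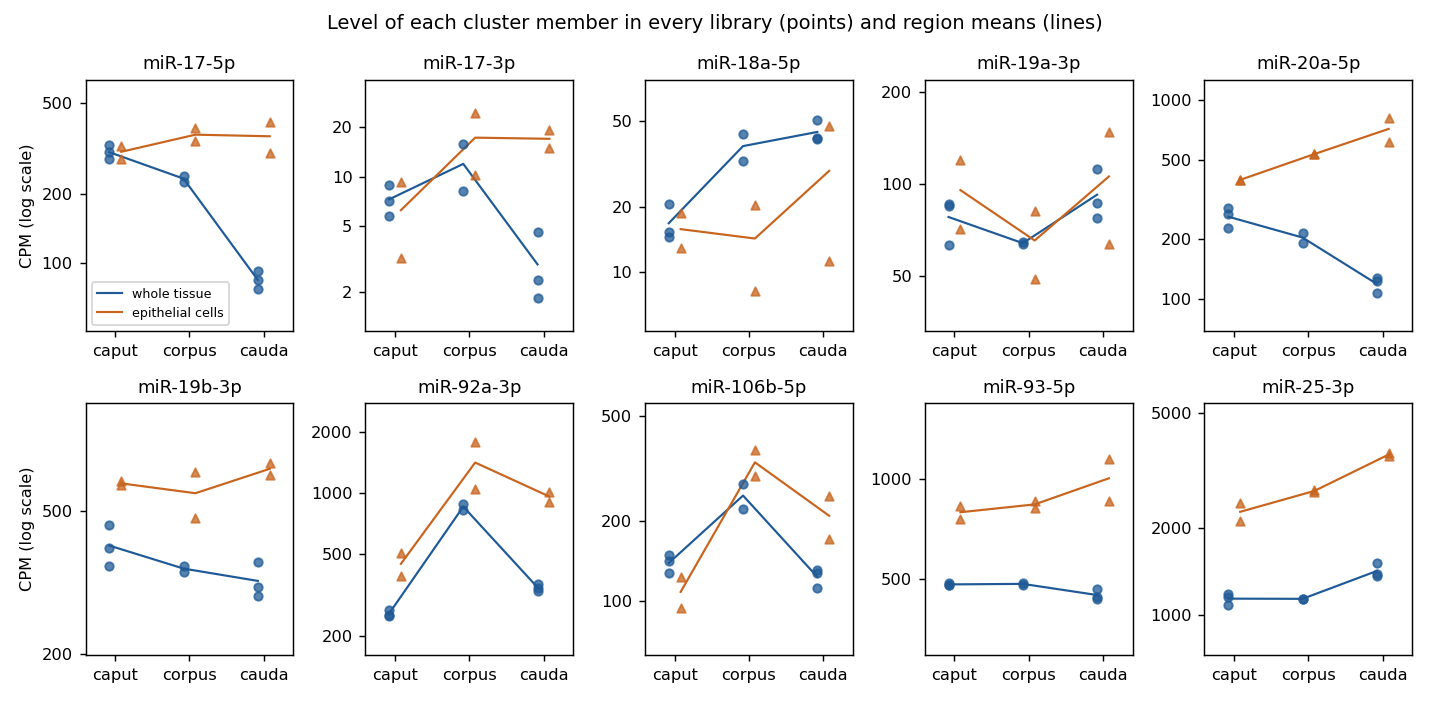
Level of each member in CPM (log scale) in every library of caput, corpus and cauda, with circles for whole tissue, triangles for epithelial cells and lines joining region means. The preparations were scaled separately. miR-17-5p in whole tissue drops to between 77.0 and 92.3 CPM in the cauda, while its epithelial libraries stay between 287 and 416 CPM in all regions.

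In whole tissue, products of the same miR-17-92 transcript moved in opposite directions from caput to cauda. miR-17-5p and miR-20a-5p, which carry the growth-promoting miR-17 seed, fell, whereas miR-18a-5p, from a hairpin between theirs, rose. miR-92a-3p rose as well, but the X-linked copy may add to its counts, and miR-92a-1-5p, the arm that only the hairpin of this transcript gives, fell (log2 change -1.10). miR-92a-3p and miR-106b-5p shared another pattern, with their highest levels in the corpus. The calls were made with limma-voom over all miRNAs with a mean count above 10 in either region compared, and "rose", "fell" and "changed" refer to an FDR below 0.05. A change that was also at least 2-fold was taken as differential expression.

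miR-17-5p, the namesake of its family, had 327, 305 and 285 CPM in the caput libraries, 227 and 241 CPM in the corpus and 92.3, 84.7 and 77.0 CPM in the cauda. Every corpus library lay below every caput library, and every cauda library below all the others. From caput to cauda miR-17-5p fell by 1.84 on the log2 scale (SE 0.12, 3.59-fold, adjusted p = 3.03e-07 by limma-voom), and most of that fall lay between corpus and cauda (log2 change -1.47, SE 0.13, adjusted p = 1.5e-05). The earlier step, from caput to corpus, was small (-0.38, SE 0.12, adjusted p = 0.0199), and it missed the threshold with DESeq2's Wald test, without a filter, with library totals, or when any of 4 libraries was left out (caput 1 or 2, corpus 1 or 2).

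miR-20a-5p, the second miR-17 family product of the transcript, fell as well, though by less. It had 285, 266 and 226 CPM in the caput, 215 and 191 CPM in the corpus and 127, 107 and 123 CPM in the cauda, without overlap between regions. The fall from caput to cauda was 2.16-fold (log2 change -1.11, SE 0.13, adjusted p = 2.45e-05 by limma-voom), and the step from caput to corpus did not pass (-0.34, SE 0.14, adjusted p = 0.0572), except without the third caput library (adjusted p = 0.0425). There were 1.19 ± 0.0646 counts of miR-17-5p per count of miR-20a-5p (caput), 1.16 ± 0.145 (corpus) and 0.715 ± 0.0836 (cauda), with the cauda below both other regions. Fractions stood among the counts of miR-17-5p in 7 of the 8 libraries and of miR-20a-5p in 6, so reads may have been divided between near-identical miRNAs, and part of each count may belong to the other. In bulk tissue fewer cells of a type and less RNA per cell cannot be told apart. The fall of both miRNAs from caput to cauda went with the lower share of epithelial markers and the higher share of muscle markers given above, and the part of these shares in it was not tested.

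miR-17-3p, the opposite strand of the miR-17 hairpin, was counted far less often. It held 9, 13 and 13 counts in the caput libraries, 11 and 24 counts in the corpus and 9, 3 and 4 counts in the cauda. It fell from corpus to cauda (log2 change -1.95, SE 0.47, adjusted p = 0.00624 by limma-voom), which was lost without the second corpus library (adjusted p = 0.0647). There were 43.5 ± 11.7 (SD, n = 3) counts of miR-17-5p per count of miR-17-3p (caput), 21.5 ± 8.73 (n = 2, corpus) and 32.8 ± 13.0 (n = 3, cauda). The caput and corpus ratios did not overlap, and the cauda overlapped both. Its fall from caput to cauda (log2 change -1.27, SE 0.47, adjusted p = 0.0287) was lost with DESeq2's Wald test, with library totals, or without any of 4 libraries (caput 2 or 3, cauda 2 or 3). Its change from caput to corpus did not pass (0.68, SE 0.39, adjusted p = 0.163), except with library totals or without the first corpus library (lowest adjusted p = 0.0484).

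miR-18a-5p, whose hairpin is next to that of miR-17, ran the other way. Its libraries had 20.6, 14.5 and 15.4 CPM in the caput, 32.9 and 43.9 CPM in the corpus and 51.0, 41.9 and 41.3 CPM in the cauda. All corpus and cauda libraries were above the caput, and corpus and cauda overlapped. miR-18a-5p rose 2.28-fold from caput to corpus (log2 change 1.19, SE 0.24, adjusted p = 0.00202 by limma-voom) and was 2.66-fold higher in cauda than in caput (1.41, SE 0.21, adjusted p = 0.000153).

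The ratio of neighbours does not depend on how the libraries are scaled. For each count of miR-18a-5p there were 18.5 ± 2.58 counts of miR-17-5p (caput), 6.20 ± 1.01 (corpus) and 1.90 ± 0.109 (cauda), SD over 3, 2 and 3 libraries, with no overlap between regions (the plot of ratios within the transcript). In epithelial cells, where miR-18a-5p held 1 to 10 counts, the ratio was 19.9 ± 3.36, 30.5 ± 16.3 and 17.9 ± 12.9 (SD, n = 2 each), and the regions overlapped. Across the 7 members of the transcript the fitted whole tissue changes from caput to cauda ranged over 3.25 log2 units, against 0.49 across the 3 members of miR-106b-25. A range tends to grow with the number of members. The ranges were 2.12 and 0.85 from caput to corpus, and 2.46 and 1.34 from corpus to cauda. In epithelial cells, with 5 and 3 members tested, they were 2.12 and 1.56, then 1.06 and 1.14, and 1.06 and 0.61 from caput to cauda.

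miR-19a-3p and miR-19b-3p, the products known as the main oncogenic part of miR-17-92, changed least within the cluster from caput to cauda. miR-19a-3p lay between 63.1 and 112 CPM over the 8 libraries, with overlap between caput and cauda, and passed the test in no comparison (log2 change from caput to cauda 0.25, SE 0.18, adjusted p = 0.209). Every cauda library lay above both corpus libraries, and that change (0.51, SE 0.21, adjusted p = 0.0603) passed with edgeR's quasi-likelihood test, DESeq2's size factors and the replicate block, and without the third caput or the third cauda library (lowest adjusted p = 0.011). The change from caput to cauda passed with library totals (adjusted p = 0.0108). miR-19b-3p had 459, 394 and 351 CPM in the caput, 339 and 353 CPM in the corpus and 361, 308 and 291 CPM in the cauda. It passed from caput to cauda (log2 change -0.32, SE 0.13, adjusted p = 0.038), yet its direction turned under scaling by library totals (0.030) and leaving out any of 6 libraries lost the call (all except the third caput and the first cauda). Counts of miR-19b-3p per count of miR-19a-3p were 5.19 ± 0.481 (caput), 5.42 ± 0.105 (corpus) and 3.51 ± 0.276 (cauda).

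miR-92a-3p, which both the last hairpin of the transcript and the X-linked copy encode, and which is the one known for limiting vessel growth, was highest in the corpus. It had 249, 268 and 253 CPM in the caput, 888 and 828 CPM in the corpus and 344, 331 and 360 CPM in the cauda, so that the 3 regions did not overlap. The rise from caput to corpus was 3.34-fold (log2 change 1.74, SE 0.098, adjusted p = 8.11e-07 by limma-voom) and the fall from corpus to cauda 2.48-fold (-1.31, SE 0.096, adjusted p = 6.25e-06). A smaller difference remained between caput and cauda (0.43, SE 0.093, adjusted p = 0.00186). In the corpus miR-92a-3p alone made up 48.8% ± 1.68 of the counts of its cluster, against 19.5% ± 1.89 in the caput and 34.3% ± 2.76 in the cauda.

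miR-106b-5p, the miR-17 family product at the start of the other cluster, had a corpus peak as well. It had 141, 148 and 127 CPM in the caput, 223 and 278 CPM in the corpus and 127, 131 and 111 CPM in the cauda. Both corpus libraries stood above all the others, and caput and cauda overlapped. It rose 1.80-fold from caput to corpus (log2 change 0.85, SE 0.14, adjusted p = 0.000616 by limma-voom) and fell 2.03-fold from corpus to cauda (-1.02, SE 0.14, adjusted p = 0.000204).

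The other products of the cluster were steadier. miR-93-5p, with the same seed as miR-17-5p, had 478, 486 and 479 CPM in the caput, 479 and 486 CPM in the corpus and 467, 433 and 440 CPM in the cauda, and passed in no comparison (log2 change from caput to cauda -0.11, SE 0.083, adjusted p = 0.261). Scaled by library totals, the same change was 0.24 (adjusted p = 0.0236), and that from caput to corpus, 0.0058 by TMM, was 0.34 (adjusted p = 0.0121). miR-25-3p, which carries the miR-92 seed, had 1151, 1081 and 1183 CPM in the caput, 1137 and 1136 CPM in the corpus and 1511, 1363 and 1384 CPM in the cauda. All 3 cauda libraries were the highest, and the rise from caput to cauda was 1.25-fold (0.32, SE 0.081, adjusted p = 0.00472). Its rise from corpus to cauda (0.32, SE 0.092, adjusted p = 0.0147) was lost without either corpus library and without a filter. Within the cluster there were 0.519 ± 0.0759 counts of miR-106b-5p for each count of miR-93-5p in the corpus (SD, n = 2), against 0.289 ± 0.0203 in the caput and 0.276 ± 0.0243 in the cauda (n = 3 each).

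In counts, 4 of the 10 members changed from caput to corpus (3 rose and 1 fell) and 2 of these were differentially expressed (miR-18a-5p and miR-92a-3p). Of all 334 miRNAs tested in that comparison 59.3% changed, 26.6% rising and 32.6% falling, and 29.9% were differentially expressed. From corpus to cauda 6 members changed, of which miR-25-3p rose and 5 fell, and 4 were differentially expressed, beside 54.3% of all miRNAs (27% rising, 27.3% falling, 27.3% differentially expressed). From caput to cauda 7 members changed, 3 rising and 4 falling, with 4 differentially expressed, beside 79.2% of all miRNAs (37.7% rising, 41.4% falling, 53.2% differentially expressed). The median log2 change of the members from caput to cauda was -0.14, against -0.05 over all miRNAs tested. The members' shares lay on either side of the background, so the number called is no result about the clusters. Without the first corpus library the caput to corpus comparison gave 4 differentially expressed members, and without the second the corpus to cauda comparison gave 2. Scaling by library totals in place of TMM moved the median change of all miRNAs up by 0.33 (caput to corpus) and 0.35 (caput to cauda), turned their split of rising and falling calls from 89 and 109 to 135 and 60, and from 134 and 147 to 167 and 110, and gave 4 and 2 differentially expressed members. Under it miR-17-5p, miR-20a-5p, miR-18a-5p and miR-92a-3p kept their directions from caput to cauda.

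**Figure D2:**
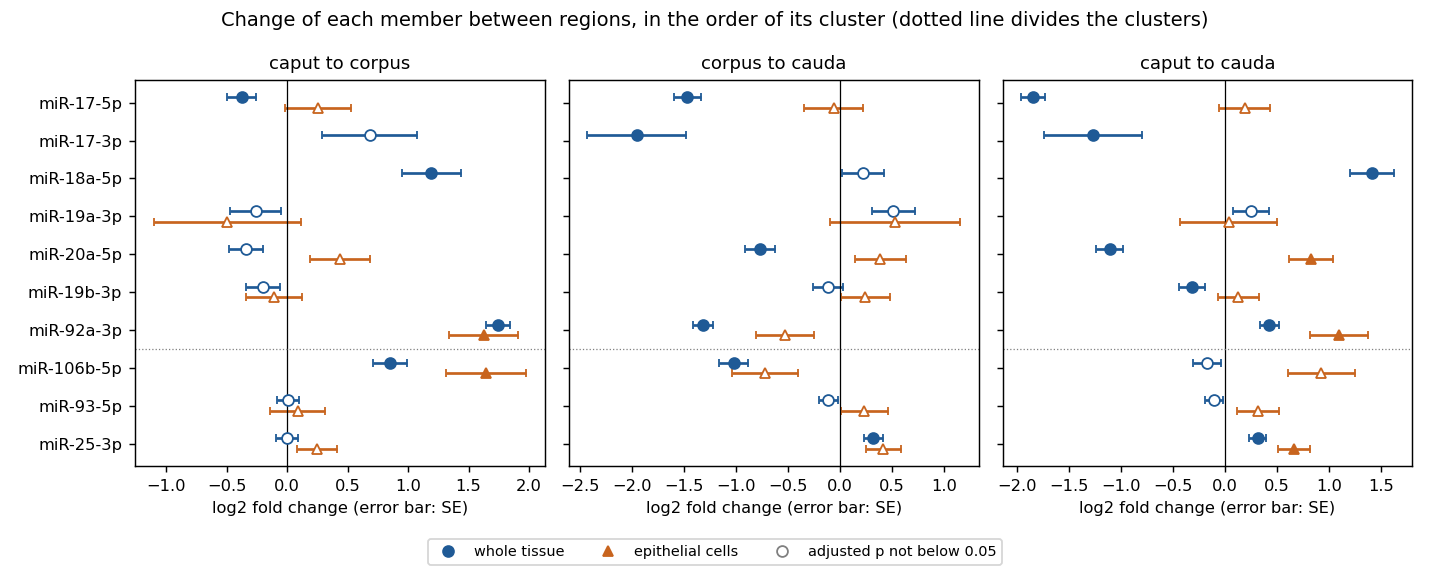
Log2 fold change of each member (rows, in cluster order) for the 3 comparisons, with standard errors, in whole tissue (circles) and epithelial cells (triangles), and open symbols where the adjusted p was not below 0.05. miR-17-3p and miR-18a-5p were not tested in epithelial cells. From caput to cauda the whole tissue symbols of miR-17-5p and miR-20a-5p lie at -1.84 and -1.11, and the epithelial ones at 0.19 and 0.83.

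In isolated epithelial cells, miR-92a-3p and miR-106b-5p rose from caput to corpus, as in whole tissue, but neither passed the test from corpus to cauda. From caput to cauda miR-20a-5p, which fell in whole tissue, rose, and so did miR-25-3p and miR-92a-3p. Some marker shares also moved between caput and corpus. In the epithelial preparation the mean share went from 2.51 to 4.10% for epithelial, from 2.80 to 1.41% for endothelial and from 15.8 to 21.9% for muscle miRNAs. Its red blood cell, leukocyte and germ cell shares went from 0.0379 to 0.0322%, 0.0608 to 0.0623% and 0.377 to 0.328%. In whole tissue the muscle share went from 5.09 to 8.50% and the red blood cell share from 0.00773 to 0.0272%. The whole tissue leukocyte and germ cell shares went from 0.0916 to 0.142% and 0.412 to 0.572%. Those of endothelial and epithelial miRNAs went from 1.39 to 1.56% and 1.95 to 1.93%. The part of these shares in the corpus levels of miR-92a-3p and miR-106b-5p was not tested. Here 8 members had enough counts to be tested. miR-18a-5p, with 1 to 10 counts per library, and miR-17-3p, with 1 to 4, stayed below the mean count of 10 in all regions, so whether they changed was not detectable at this depth.

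miR-92a-3p had 507 and 393 CPM in the caput libraries, 1777 and 1042 CPM in the corpus and 909 and 1013 CPM in the cauda. The corpus libraries were the highest, although they stood far apart from each other. The rise from caput to corpus was 3.08-fold (log2 change 1.62, SE 0.29, adjusted p = 0.00879 by limma-voom), and from caput to cauda it was 2.14-fold (1.10, SE 0.28, adjusted p = 0.0168). The change from corpus to cauda was not past the threshold (-0.53, SE 0.27, adjusted p = 0.219). The first rise was lost without the second caput or the first corpus library (highest adjusted p = 0.0703), and the rise from caput to cauda without the second caput or the second cauda library (highest adjusted p = 0.115).

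miR-106b-5p had 93.4 and 122 CPM in the caput, 373 and 296 CPM in the corpus and 171 and 248 CPM in the cauda, which rest on 29 to 52 counts per library. No 2 regions overlapped. It rose 3.13-fold from caput to corpus (log2 change 1.65, SE 0.33, adjusted p = 0.0129 by limma-voom), and the change from corpus to cauda did not pass (-0.72, SE 0.32, adjusted p = 0.165). The rise was lost without either caput library or without the first corpus library. The change from caput to cauda missed the threshold (0.93, SE 0.32, adjusted p = 0.0503), and passed with edgeR's quasi-likelihood test, DESeq2's size factors and library totals (lowest adjusted p = 0.0408), and without the first cauda library (adjusted p = 0.0263). Counts of miR-106b-5p per count of miR-93-5p were 0.137 ± 0.0349 (caput), 0.398 ± 0.0505 (corpus) and 0.207 ± 0.0118 (cauda), SD over 2 libraries each, with no overlap of regions.

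miR-20a-5p had 395 and 396 CPM in the caput, 536 and 531 CPM in the corpus and 614 and 812 CPM in the cauda, each region above the one before it. From caput to cauda it rose 1.77-fold (log2 change 0.83, SE 0.21, adjusted p = 0.0176 by limma-voom). This call was lost without a filter and with a filter of 10 counts in every library. With a library left out, the log2 change of miR-20a-5p ran from 0.63 to 1.10. miR-17-5p, its family neighbour, had 327 and 287 CPM in the caput, 341 and 388 CPM in the corpus and 302 and 416 CPM in the cauda, with overlap of caput and cauda and a log2 change of 0.19 (SE 0.25, adjusted p = 0.541). miR-25-3p had 2440 and 2110 CPM in the caput, 2710 and 2665 CPM in the corpus and 3630 and 3554 CPM in the cauda, and rose 1.58-fold from caput to cauda (0.66, SE 0.16, adjusted p = 0.014). With a library left out, its log2 change ran from 0.59 to 0.83.

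The remaining members showed no change past the threshold. miR-93-5p had 831 and 757 CPM in the caput and 860 and 1151 CPM in the cauda (log2 change 0.32, SE 0.20, adjusted p = 0.248), and passed without the first cauda library (adjusted p = 0.0263). miR-19b-3p lay between 479 and 683 CPM in all 6 libraries, with a log2 change of 0.13 from caput to cauda (SE 0.20, adjusted p = 0.606), and miR-19a-3p, at 6 to 38.5 counts, had one of 0.035 with an SE of 0.47.

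From caput to corpus 2 of the 8 tested members changed, both rising and both differentially expressed, beside 19% of 205 miRNAs (9.76% rising, 9.27% falling, 12.2% differentially expressed). From corpus to cauda limma-voom called 0 members, with 1 (miR-25-3p) at an unadjusted p under 0.05, and edgeR's quasi-likelihood test and DESeq2 also called 0, beside 13.5% of 192 miRNAs (7.81% rising, 5.73% falling, 10.9% differentially expressed). From caput to cauda 3 changed, all rising, of which miR-92a-3p was differentially expressed, beside 39.4% of 216 miRNAs (20.8% rising, 18.5% falling, 25.9% differentially expressed). Leaving out a library left a single sample in its region, which was then assumed to vary like the other regions. Without the second caput library 0 members changed in either comparison with the caput. Without the first corpus library 0 changed from caput to corpus, and without the first caput library 1 did. By library totals the split of rising and falling calls over all miRNAs was 26 and 14, 16 and 7, and 58 and 23 in the 3 comparisons, against 20 and 19, 15 and 11, and 45 and 40 by TMM. DESeq2's size factors gave 29 and 17 for the first and 15 and 16 for the next. Without the first cauda library 5 members changed from caput to cauda and 3 were differentially expressed, and without the second cauda library 0 were differentially expressed. The call of miR-20a-5p was also lost without the first caput library, without a filter, and with a filter of 10 counts in every library, and under these filters 0 members were differentially expressed from caput to cauda.

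Whether the course from caput to cauda differed between the preparations was tested as an interaction over the 194 miRNAs identified in both, for 8 members. The difference passed for 4 of them, beside 32% of all miRNAs tested. For miR-17-5p the epithelial change exceeded that in whole tissue by 2.08 log2 units (SE 0.24, 4.24-fold, adjusted p = 2.91e-05 by limma-voom), and for miR-20a-5p by 1.98 (SE 0.24, 3.95-fold, adjusted p = 4.3e-05). These 2 passed under every alternative and with each library left out, though with a filter of 10 counts in every library they were 1.42 and 1.31 log2 units. Their epithelial counts held no fractions in any of 6 libraries, unlike those of whole tissue, so any sharing of reads may differ between the tables, and its part in these differences was not tested. In epithelial cells there were 0.775 ± 0.0730 counts of miR-17-5p per count of miR-20a-5p (caput), 0.684 ± 0.0668 (corpus) and 0.501 ± 0.0147 (cauda), SD over 2 libraries each, so the ratio was lowest in the cauda, as in whole tissue. The differences for miR-106b-5p (1.16, SE 0.34, adjusted p = 0.0207) and miR-92a-3p (0.71, SE 0.23, adjusted p = 0.0297) did not pass with DESeq2's size factors, library totals, no filter or a filter of 10 counts in every library, each of which left 2 members, and 2 were also left without the second whole tissue corpus, the first epithelial caput or the second epithelial cauda library. miR-92a-3p missed the threshold without any of 4 further libraries (whole tissue caput 3 and cauda 2, epithelial caput 2 and cauda 1), and its difference was 0.046 with a filter of 10 counts in every library (adjusted p = 0.908). miR-25-3p did not pass (0.39, SE 0.14, adjusted p = 0.0509). It passed with DESeq2's Wald test (0.40, adjusted p = 0.0347) and without the second whole tissue caput library (adjusted p = 0.0384), and its direction turned with a filter of 10 counts in every library (-0.28). Epithelial markers in the epithelial preparation took 2.49 to 2.52% of counts in the caput and 3.19 to 4.81% in the cauda, where those of whole tissue went down. Over the same regions of the epithelial preparation the mean share of muscle markers was 15.8 and 25.2%, that of germ cell markers 0.377 and 0.490%, that of endothelial markers 2.80 and 5.41%, that of red blood cell markers 0.0379 and 0.230% and that of leukocyte markers 0.0608 and 0.156%. The part of these shares in the differences, and in the epithelial rises of miR-20a-5p, miR-92a-3p and miR-25-3p, was not tested.

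The ratio of the clusters within each library summarises the members. In whole tissue there were 0.754 ± 0.0730 counts of miR-17-92 members for each count of miR-106b-25 members (caput), 0.940 ± 0.0359 (corpus) and 0.506 ± 0.0110 (cauda), SD over 3, 2 and 3 libraries. All libraries of the corpus lay above those of the caput, which lay above those of the cauda. In epithelial cells the ratios were 0.588 ± 0.00492, 0.767 ± 0.0678 and 0.590 ± 0.0622 (n = 2 each), so the corpus was again the highest, and caput and cauda overlapped. miR-25-3p took most of the miR-106b-25 counts, at 60.8% ± 1.46 to 71.4% ± 0.532 by region in whole tissue. Left without miR-19b-3p and miR-92a-3p, which the X-linked cluster also encodes, the whole tissue ratio was 0.379 (caput), 0.295 (corpus) and 0.172 (cauda), and the epithelial ratio 0.258, 0.258 and 0.253, so the corpus no longer led in either preparation.

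Sorted by seed, the members of the miR-17 family made up 38.4% ± 1.03 of member counts in whole tissue libraries of the caput, 32.3% ± 0.866 (corpus) and 25.8% ± 0.353 (cauda), and the regions did not overlap. The summed level of the miR-17 family was 1184 ± 59.4 CPM in the caput and 1170 ± 37.0 CPM in the corpus, so its lower share in the corpus went with the higher level of miR-92a-3p. Without miR-19b-3p and miR-92a-3p the shares were 48.8% (caput), 48.3% (corpus) and 33.2% (cauda). The miR-92 family took 45.3% ± 2.38, 55.0% ± 1.45 and 58.9% ± 1.00. Its summed level was 1395 ± 44.1, 1994 ± 43.0 and 1764 ± 82.9 CPM, so from corpus to cauda its share was higher while its level was lower. The miR-18 family was the smallest, at 0.544% ± 0.0883, 1.06% ± 0.211 and 1.49% ± 0.0927, and the miR-19 family held 15.5% ± 1.59, 11.3% ± 0.228 and 13.7% ± 1.07. In epithelial cells the miR-17 family share was 31.9% ± 1.38 (caput), 30.4% ± 1.28 (corpus) and 29.7% ± 3.85 (cauda), which overlap, and the miR-92 family share was 53.9% ± 1.89, 59.9% ± 3.98 and 59.7% ± 4.64. A common seed did not mean a common course. Of the 4 miR-17 family members in whole tissue, 2 fell from caput to cauda (the 2 of miR-17-92), and miR-106b-5p and miR-93-5p of the other cluster had log2 changes of -0.17 and -0.11. Of the miR-92 pair, miR-92a-3p was 3.34-fold higher in corpus than in caput and miR-25-3p differed by -0.0019 log2 units (SE 0.092). Scaled by library totals, miR-25-3p was higher in corpus by 0.33 (adjusted p = 0.0136). There were 1.33 ± 0.0645 counts of miR-25-3p per count of miR-92a-3p in the corpus, against 4.45 ± 0.354 in the caput and 4.12 ± 0.271 in the cauda.

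**Figure D3:**
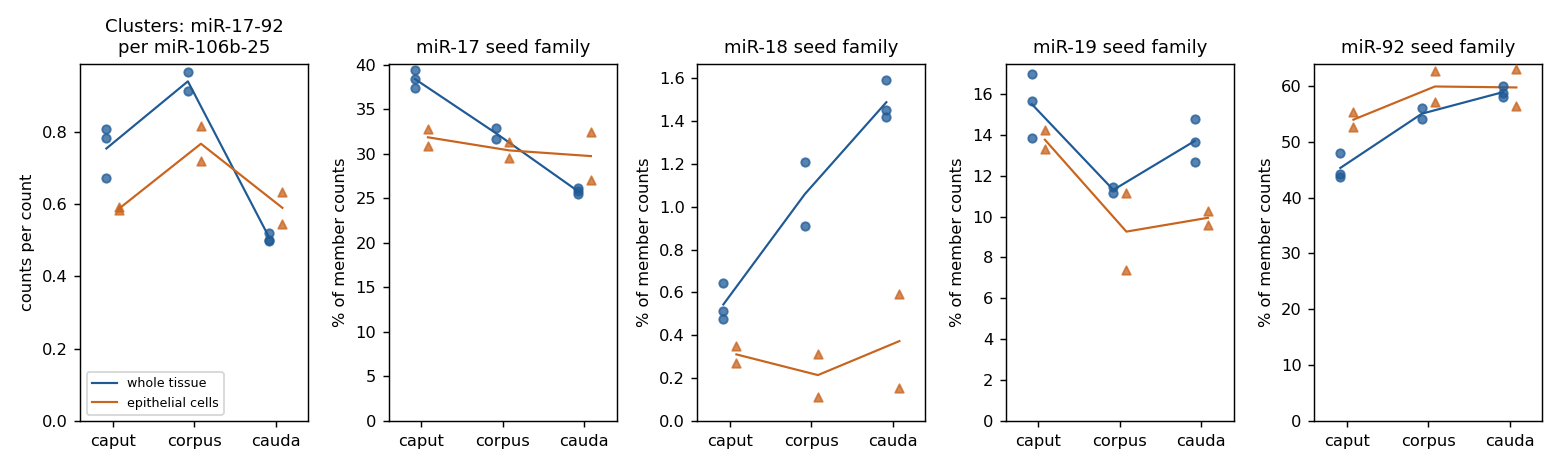
Counts of miR-17-92 members per count of miR-106b-25 members, and the share of each seed family in the counts of the 10 members (%), in every library (points) with region means (lines), for whole tissue (circles) and epithelial cells (triangles). The whole tissue ratio is highest in the corpus, at 0.940, and the miR-17 family share goes from 38.4% in the caput to 25.8% in the cauda.

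Of the 8 opposite arms of these hairpins on the list, 7 were in the whole tissue table and miR-92a-1-5p was the only one with more than 25 counts in any library. Its sequence and that of its partner strand, from the same hairpin, are shown because the pair reached near-equal counts.
miR-92a-1-5p: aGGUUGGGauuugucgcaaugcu
miR-92a-3p: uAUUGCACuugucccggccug
miR-92a-1-5p had 195, 259 and 225 CPM in the whole tissue caput, 194 and 218 CPM in the corpus and 109, 87.4 and 120 CPM in the cauda. It fell from corpus to cauda (log2 change -0.97, SE 0.17, adjusted p = 0.00094 by limma-voom) and from caput to cauda (-1.10, SE 0.15, adjusted p = 8.55e-05), but did not follow miR-92a-3p into the corpus (-0.13, SE 0.16, adjusted p = 0.531). There were 1.14 ± 0.124 counts of miR-92a-3p per count of miR-92a-1-5p (caput), 4.19 ± 0.564 (corpus) and 3.31 ± 0.417 (cauda). In epithelial cells miR-92a-1-5p held 4 to 14 counts per library and the ratio was 18.0 ± 9.02, 33.0 ± 30.7 and 51.7 ± 13.2. Every epithelial library thus had a higher ratio than every whole tissue library. Since the X-linked locus can add to miR-92a-3p but not to miR-92a-1-5p, its share cannot be told apart in this ratio.

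**Figure D4:**
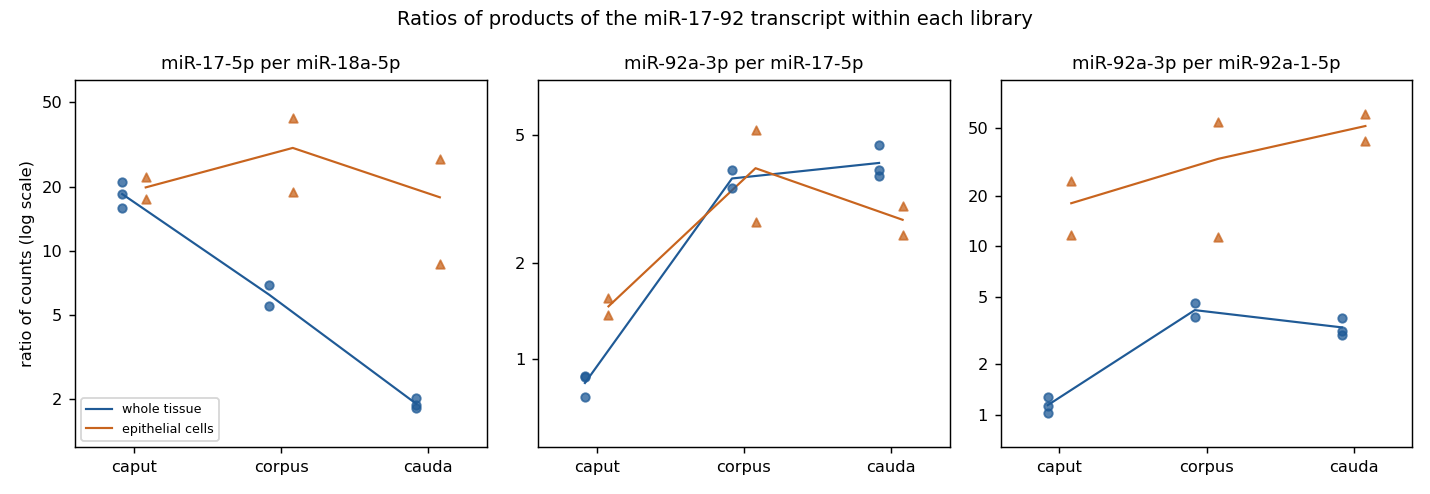
Ratios of counts (log scale) of miR-17-5p to miR-18a-5p, of miR-92a-3p to miR-17-5p and of miR-92a-3p to miR-92a-1-5p in every library (points) with region means (lines), for whole tissue (circles) and epithelial cells (triangles). In whole tissue the first goes from 18.5 in the caput to 1.90 in the cauda, and the last from 1.14 in the caput to 4.19 in the corpus.

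miR-92b-3p and miR-32-5p carry the miR-92 seed from other loci, and both were lower in the cauda than in the caput of whole tissue, where miR-92a-3p and miR-25-3p were higher. Their sequences show how little, beyond the common seed in capitals, separates miR-92b-3p from miR-92a-3p.
miR-92b-3p: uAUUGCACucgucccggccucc
miR-32-5p: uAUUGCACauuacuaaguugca
miR-92b-3p, which differs from miR-92a-3p at 2 of 21 positions, had 112, 187 and 196 CPM in the caput, 32.9 and 16.4 CPM in the corpus and 31.4, 33.9 and 48.9 CPM in the cauda. It fell 6.94-fold from caput to corpus (log2 change -2.79, SE 0.39, adjusted p = 0.000212 by limma-voom), where miR-92a-3p rose, and was 4.30-fold lower in cauda than in caput (-2.10, SE 0.28, adjusted p = 6.94e-05). miR-32-5p held 21, 23 and 15 counts in the caput, 5 and 8 counts in the corpus and 8, 2 and 0 counts in the cauda, and it fell from caput to cauda (adjusted p = 0.00301). In epithelial cells miR-92b-3p had 140 and 135 CPM in the caput, 56.8 and 51.1 CPM in the corpus and 156 and 62.1 CPM in the cauda. Both corpus libraries lay below the caput, with 5 to 7 counts, and the change did not pass (log2 change -1.25, SE 0.57, adjusted p = 0.17), nor did that from caput to cauda (-0.41, SE 0.41, adjusted p = 0.429).

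Last, the miRNAs whose levels ran most closely with each cluster were sought among 178 names outside these lists with a mean above 100 counts over the 8 whole tissue libraries, by Pearson's r of log2(CPM + 1) with the cluster's summed CPM. For miR-17-92, whose sum was 1324 ± 116 CPM (caput), 1756 ± 26.2 (corpus) and 1008 ± 73.3 (cauda), these were miR-30d-5p (r = 0.938), miR-30e-5p (r = 0.937) and miR-34a-5p (r = 0.913). miR-30d-5p had 2344 ± 76.1 CPM (caput), 3627 ± 109 (corpus) and 2062 ± 109 (cauda). For miR-106b-25, with sums of 1758 ± 38.5, 1869 ± 43.6 and 1989 ± 101 CPM, they were miR-501-3p (r = 0.945), miR-465a-5p (r = 0.934) and miR-743b-3p (r = 0.927). miR-465a-5p and miR-743b-3p belong to an X-linked group known from the testis, and miR-465a-5p is on the germ cell marker list, whose share was also higher in the cauda of whole tissue. miR-743b-3p had 98.8 ± 15.0 CPM in the caput and 763 ± 229 in the cauda. These correlations are descriptions over 8 libraries that share their regions and scaling.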

How the data were processed

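Per the labels and the methods of the study, small RNA libraries were sequenced on an Illumina platform and reads were aligned to mature miRNAs of the mouse (mm10), with CASAVA 1.8.2, Bowtie 1.1.1 and limma named in the submitters' processing notes. The values the authors deposited are expected counts of reads for every mature miRNA and were not normalized. Epithelial values carried an added 0.001, which was removed. How reads matching several miRNAs were divided is not given in the sources used here. The methods give 2 replicates per region, all 14 libraries were used, and the sources differ on whether replicates are biological or technical. If technical, p-values measure only that spread.

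Counts were rounded and scaled by TMM (edgeR 4.0.16), and tested with limma-voom (limma 3.58.1, R 4.3.3), 1 fit per preparation, over miRNAs whose mean count was above 10 in at least 1 of the regions compared, adjusting p by Benjamini-Hochberg. Standard errors are those of the fit. The interaction came from a joint fit of both tables. No replicate libraries agreed within sampling noise. Ratios and shares have no test, and a count of 0 allows up to 3 counts, for counting error only. Alternatives were edgeR's quasi-likelihood test, DESeq2 1.42.0, other scalings and filters, only the regions compared, a replicate block and each library left out. The methods were tested on simulated data. All 10 members matched a RefSeq mature sequence. The members and the lists of relatives and markers were chosen with earlier results of these data known. Named are the members, the listed relatives and the 3 miRNAs most correlated with each cluster.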

Additional observations from a re-analysis of the deposited data

Results flagged for a closer look

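The change from caput to cauda differed between whole tissue and epithelial cells by the interaction test for 4 members. The epithelial change minus that in whole tissue was 2.08 (log2) for miR-17-5p, 1.98 for miR-20a-5p, 1.16 for miR-106b-5p and 0.71 for miR-92a-3p. miR-17-5p and miR-20a-5p fell in whole tissue, and in epithelial cells miR-20a-5p rose and miR-17-5p had a log2 change of 0.19. The epithelial rise of miR-20a-5p was lost without a filter and with a filter of 10 counts in every library. miR-92a-3p rose in both preparations. Its difference and that of miR-106b-5p missed the threshold under 4 of 7 alternatives, where they ranged from 0.046 to 0.53 and from 0.48 to 0.96.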

How the results depend on the processing

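Over 481 alternative values for single members with all libraries kept, 433 kept their direction and side of the threshold, 20 lost a call, 10 gained one and 18 changed sign. Of 496 values with a library left out, 435, 37, 7 and 17 did so in turn. miR-17-5p and miR-20a-5p from caput to cauda in whole tissue, and their difference between preparations, had an FDR below 0.05 under every alternative run, but the fall of miR-20a-5p was under 2-fold by library totals and without the first caput library.

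By library totals, the differentially expressed members numbered 4 (caput to corpus) and 2 (caput to cauda) in whole tissue and 3 (caput to cauda) in epithelial cells. Epithelial members differentially expressed from caput to cauda numbered 0 without a filter and 0 with at least 10 counts in every library. The difference between preparations passed for 2 members with DESeq2's size factors, library totals, no filter and at least 10 counts in every library. With each library left out, members differentially expressed in whole tissue numbered 2 to 4 from caput to corpus (4 without the first corpus library) and 2 to 4 from corpus to cauda (2 without the second corpus library), and in epithelial cells 0 to 2 from caput to corpus and 0 to 3 from caput to cauda. Members with an FDR below 0.05 numbered 0 to 2 and 0 to 5 in those 2 epithelial comparisons, and the difference between preparations passed for 2 to 5 members.

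Without miR-19b-3p and miR-92a-3p, the counts of miR-17-92 members per count of miR-106b-25 members were 0.379, 0.295 and 0.172 in the caput, corpus and cauda of whole tissue and 0.258, 0.258 and 0.253 in epithelial cells. The miR-17 family share was then 48.8, 48.3 and 33.2% in whole tissue and 40.2, 42.6 and 37.7% in epithelial cells. The miR-18 family share was then 0.692, 1.58 and 1.91% in whole tissue and 0.392, 0.295 and 0.472% in epithelial cells. The miR-19 family share was then 3.21, 2.64 and 3.93% in whole tissue and 2.36, 1.35 and 1.72% in epithelial cells. The miR-92 family share was then 47.0, 47.0 and 60.9% in whole tissue and 56.9, 55.4 and 59.8% in epithelial cells.

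Some signs turned. Compared with TMM, library totals raised the median log2 change over all miRNAs by 0.33 (whole tissue, caput to corpus) and 0.35 (whole tissue, caput to cauda). In epithelial cells from caput to corpus they raised it by 0.17. DESeq2's size factors raised it by 0.048 (whole tissue, caput to corpus). With at least 10 counts in every library, the differences between preparations of miR-17-5p, miR-20a-5p and miR-92a-3p were also lower, as given above. The part of such shifts in each turned sign was not tested. With DESeq2's size factors the log2 change was 0.046 for miR-25-3p (whole tissue, caput to corpus). By library totals the log2 change was 0.075 for miR-19a-3p (whole tissue, caput to corpus), 0.13 for miR-19b-3p (whole tissue, caput to corpus), 0.33 for miR-25-3p (whole tissue, caput to corpus), 0.030 for miR-19b-3p (whole tissue, caput to cauda), 0.18 for miR-106b-5p (whole tissue, caput to cauda), 0.24 for miR-93-5p (whole tissue, caput to cauda) and 0.045 for miR-19b-3p (epithelial cells, caput to corpus). Without a filter the log2 change was 0.036 for miR-25-3p (whole tissue, caput to corpus), -0.063 for miR-93-5p (epithelial cells, caput to corpus) and -0.088 for miR-19a-3p (epithelial cells, caput to cauda). With at least 10 counts in every library the log2 change was 0.035 for miR-25-3p (whole tissue, caput to corpus), -0.17 for miR-19b-3p (difference between preparations), -0.20 for miR-93-5p (difference between preparations) and -0.28 for miR-25-3p (difference between preparations). With only the 2 regions compared the log2 change was 0.040 for miR-25-3p (whole tissue, caput to corpus). With each library left out it ranged from -0.0073 to 0.085 for miR-25-3p (whole tissue, caput to corpus), -0.28 to 0.11 for miR-19b-3p (epithelial cells, caput to corpus), -0.31 to 0.20 for miR-17-5p (epithelial cells, corpus to cauda), -0.52 to 0.75 for miR-19a-3p (epithelial cells, caput to cauda), -0.052 to 1.21 for miR-19a-3p (epithelial cells, corpus to cauda), -0.0023 to 0.46 for miR-93-5p (epithelial cells, corpus to cauda), -0.026 to 0.50 for miR-17-5p (epithelial cells, caput to cauda) and -0.97 to 0.31 for miR-19a-3p (difference between preparations).

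Whether the replicate numbers pair the libraries was not settled. In a region with 2 libraries the deviations mirror each other. Between 2 such regions the same-numbered and crossed correlations therefore differ only in sign. Deviations of same-numbered libraries correlated at -0.0563 to 0.219 in whole tissue and at -0.181 to 0.199 in epithelial cells, and 2 of the 3 whole tissue caput libraries correlated best with the cauda library of their own number. A replicate block gave 2, 3 and 4 members differentially expressed in whole tissue and 2, 0 and 1 in epithelial cells (caput to corpus, corpus to cauda, caput to cauda), and 4 for the difference between preparations, with log2 changes of -0.0011 for miR-93-5p (whole tissue, caput to corpus) and 0.0032 for miR-25-3p (whole tissue, caput to corpus). With the epithelial cauda numbers exchanged, which was chosen after seeing the data, 2, 0 and 4 members had an FDR below 0.05.

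A count of 10 equalled 31.1 to 102 CPM in epithelial libraries and 5.15 to 7.47 CPM in whole tissue libraries.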
